A study of Mus musculus with 4 samples.

Results

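The 35 genes described here encode non-collagen proteins of the extracellular matrix, namely glycoproteins, small proteoglycans and the lysyl oxidases that cross-link matrix fibres. They were taken by name, and a gene was represented by its brightest probe set (by mean log2 signal) among those annotated with that gene alone. Of the 35 genes, 32 had such a probe set, of 12393 genes on the array in all. Fbn1, Efemp2 and Loxl2 had none and are not analysed here. Of the 32 genes, 29 were above a floor of 37.6 signal units on all 4 arrays, and Eln, Mfap4 and Spon1 were below it on all 4. The floor is percentile 50 of all deposited values. Signals under it were set to it, and a gene under it on both arrays of a comparison was given no ratio. Shares over all genes thus include ratios with a floored array, while those of the 29 members include none.

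The cells were labelled synovial fibroblasts and came from the knees of DBA/1J mice (males of 8 to 12 weeks, described as naïve). They were passaged 3 to 4 times and plated in medium with 1% heat-inactivated serum. One dish received vehicle and the other 3 IL-1β at 5 ng/ml. Of these 3, the second was also given indomethacin (1 µM), and the last both indomethacin (1 µM) and iloprost (1 µM); RNA was taken after 6 h. Below, "with indomethacin" and "with iloprost" name these last 2 dishes, so the iloprost dish also held indomethacin. Indomethacin blocks the cyclooxygenases, and iloprost mimics prostacyclin, the prostanoid named in the study's title. Each treatment has 1 array, so no difference between treatments could be tested, no value has an error between dishes, and all values describe these 4 dishes.

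The interstitial matrix is a mesh of collagen to which the other proteins bind. Fibronectin, tenascins and thrombospondins bind cells and growth factors, fibulins and microfibril proteins assemble elastic fibres, and small leucine-rich proteoglycans such as decorin bind collagen fibrils. Laminins and nidogens build basement membranes. In the joint, synovial lining fibroblasts secrete lubricin, the product of Prg4, which keeps cartilage surfaces sliding.

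The arrays differed in brightness as a whole, so a log2 ratio is stated relative to the median gene, taken over the 6222 genes that exceeded the floor on all 4 arrays. On the deposited scale the ratios against vehicle are shifted by 0.23 (IL-1β), 0.08 (indomethacin) and 0.09 (iloprost), those against IL-1β by -0.15 (indomethacin) and -0.14 (iloprost), and iloprost against indomethacin by 0.01. Genes were counted as higher or lower from a 1.5-fold difference. Between probe sets of the same gene, log2 ratios had an SD of 0.20 to 0.22 per probe set. It measures how far probe sets of a gene differ and not the spread between dishes. Of 20 fibroblast markers 16 were above the floor on all 4 arrays, and of 24 macrophage markers on the array 23 were. The cultures thus held RNA of both lists. In the vehicle dish the summed signal was 32806.5 for the fibroblast list and 48251 for the macrophage list. The RNA is of whole dishes, in which fewer cells of a type and less RNA per cell cannot be told apart.

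Of the 6 members past 1.5-fold in any comparison, Tnc and Fbln5 had an entry in the RefSeq promoter table of build GRCm38, with 2 start sites each. The 250 bases before these start sites are shown for the member with the largest IL-1β ratio and for the elastic-fibre member that was higher with iloprost, with matches to short motifs in capitals.
Tnc, chr4:64046937-64047186, minus strand: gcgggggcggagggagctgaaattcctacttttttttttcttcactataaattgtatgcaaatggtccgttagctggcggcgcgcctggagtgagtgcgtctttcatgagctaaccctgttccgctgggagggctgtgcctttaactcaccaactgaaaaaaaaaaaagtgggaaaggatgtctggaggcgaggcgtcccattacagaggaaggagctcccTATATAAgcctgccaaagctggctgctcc
Fbln5, chr12:101819120-101819369, minus strand: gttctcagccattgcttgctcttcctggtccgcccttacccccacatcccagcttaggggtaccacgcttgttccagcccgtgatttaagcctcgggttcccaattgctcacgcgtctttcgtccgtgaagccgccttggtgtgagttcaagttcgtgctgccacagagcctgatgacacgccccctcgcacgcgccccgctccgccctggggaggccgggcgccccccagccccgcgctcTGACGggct
Fbln5, chr12:101818485-101818734, minus strand: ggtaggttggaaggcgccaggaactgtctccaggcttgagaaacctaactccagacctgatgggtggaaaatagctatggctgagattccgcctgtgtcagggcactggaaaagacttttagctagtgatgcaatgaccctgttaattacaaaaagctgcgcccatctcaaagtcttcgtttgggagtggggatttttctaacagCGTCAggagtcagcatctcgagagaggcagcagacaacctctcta
The Tnc capitals mark a TATA box (TATANAA), whose first base lies 29 bases before the start site. The Fbln5 capitals mark a half-site of the cAMP response element (TGACG, or CGTCA on the other strand), whose first printed base lies 9 and 45 bases before the start sites. The second Tnc window overlaps the first and held no match. On either strand, TATANAA was in 10.4% of 32851 such windows of all genes and TGACG in 17.8%. No window of Tnc or Fbln5 held the full cAMP response element (TGACGTCA, in 1.55% of all windows), an AP-1 element (TGANTCA, in 6.75%) or an NF-κB element (GGANTTTCC, in 1.07%). TGACG lies within TGACGTCA, so their matches overlap. Of the 35 members, 18 had an entry, and 1 of the 18 held TGACG, 2 TATANAA and 1 TGANTCA. Counted by window, as for all genes, 2 of 25 member windows held TGACG (8%), 2 TATANAA (8%) and 1 TGANTCA (4%). A match is a description of the letters and was not linked to binding in these data.

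Few matrix genes passed 1.5-fold between the treatments that differ by 1 agent. The share of all genes was also low, at most 7.83% in either direction. Over the 4 arrays, the range of log2 signal was 0.32 for the median member and 0.37 for the median of 6222 genes. A range under 0.4 was found for 20 of 29 members (69.0%) and for 53.8% of all genes. With IL-1β against vehicle, 1 of 29 members was at least 1.5-fold higher (3.45%, against 4.65% of 6964 genes) and 0 were lower (against 3.86%). With indomethacin against IL-1β, 1 of 29 was higher (against 1.64%) and 0 were lower (against 2.35%). With iloprost against indomethacin, 2 of 29 were higher (6.90%, against 7.83%) and 1 lower (3.45%, against 7.19%). In the first of these comparisons 14 members were above the median gene and 15 below it, in the second 16 and 13, and in the third 20 and 9. All genes were above it in 47.3%, 50.4% and 54.8%. The members' median log2 ratios were -0.0022, 0.016 and 0.043, where those of all genes with a ratio were -0.017, 0.0016 and 0.039. The shares past 1.5-fold were each based on 0 to 2 members. The SD between probe sets is that of 1 probe set and not of a median, so it gives no error for these medians. The share with a narrow range was higher among members than among all genes, but it was not compared with genes of like brightness. For iloprost against indomethacin, 69.0% of members were above the median gene, against 54.8% of all genes. Lowering the floor to percentile 30 moved the median for this comparison to -0.00054 for members and 0.012 for all genes. For iloprost against vehicle 19 of 29 were above the median gene (65.5%, against 53.6%), with a median of 0.18 where all genes had 0.024. Whether 29 genes drawn at random would differ as much from all genes was not tested.

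**Figure D1:**
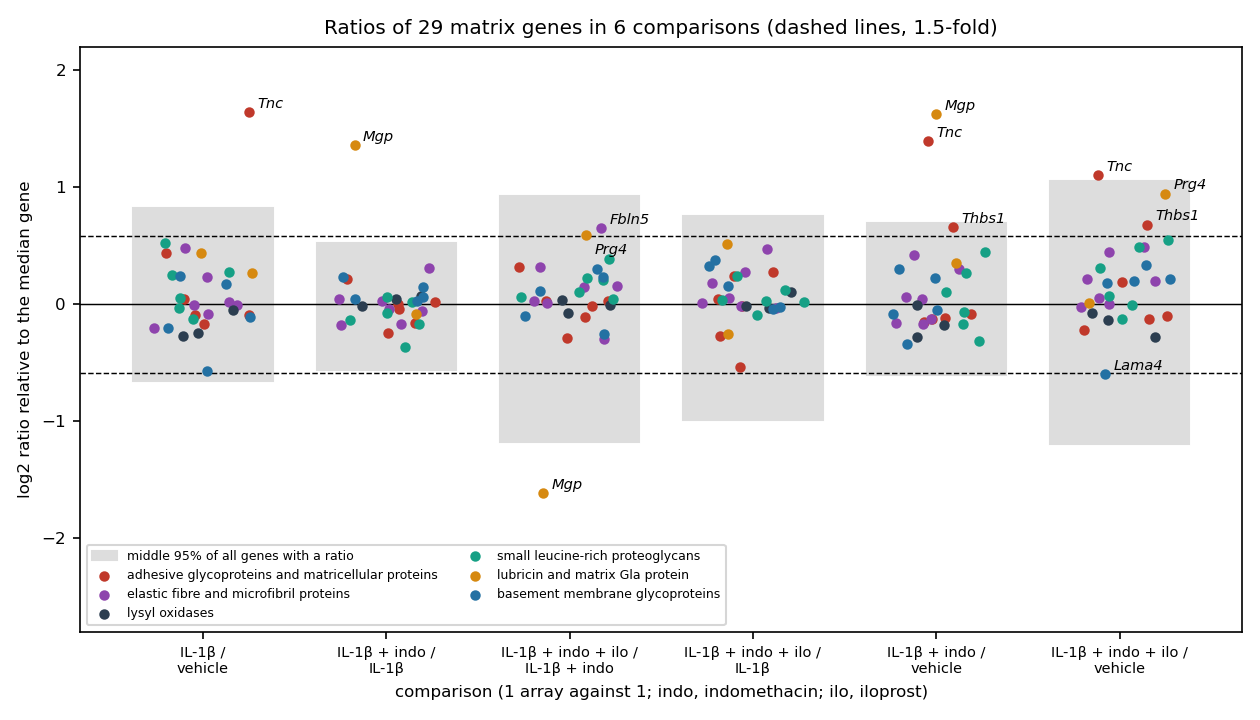
Log2 ratios of the 29 matrix genes above the floor, relative to the median gene (vertical axis), in the 6 comparisons of 1 array against 1 (horizontal axis). Points are genes coloured by role, grey boxes hold the middle 95% of all genes with a ratio, and dashed lines mark 1.5-fold. Most members lie within the boxes, and Tnc and Mgp lie outside them, Tnc with IL-1β at 1.64 and Mgp at 1.36 with indomethacin and -1.62 with iloprost.

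Tnc was the member that differed most between IL-1β and vehicle. It encodes tenascin-C, a large adhesion-modulating glycoprotein made in wounds and inflamed tissue. Tnc (probe set 1416342_at) had a signal of 375 in the vehicle dish, 1368 in the IL-1β dish, 1039 in the indomethacin dish and 857 in the iloprost dish. The vehicle dish was lowest, and the 3 dishes with IL-1β came in the order IL-1β alone, with indomethacin, with iloprost. The log2 ratio was 1.64 for IL-1β against vehicle, or 3.12-fold, the 53rd highest of 6964 genes. It was 1.39 for indomethacin against vehicle and 1.11 for iloprost against vehicle, and these 3 ratios share the vehicle array. Between the dishes with IL-1β the differences were below 1.5-fold, with log2 ratios against IL-1β alone of -0.25 (indomethacin) and -0.53 (iloprost), and one of -0.29 for iloprost against indomethacin. As deposited, that of iloprost against IL-1β was past 1.5-fold, at -0.67. Tnc has 1 probe set, so no other probe set of the gene bears on these values.

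**Figure D2:**
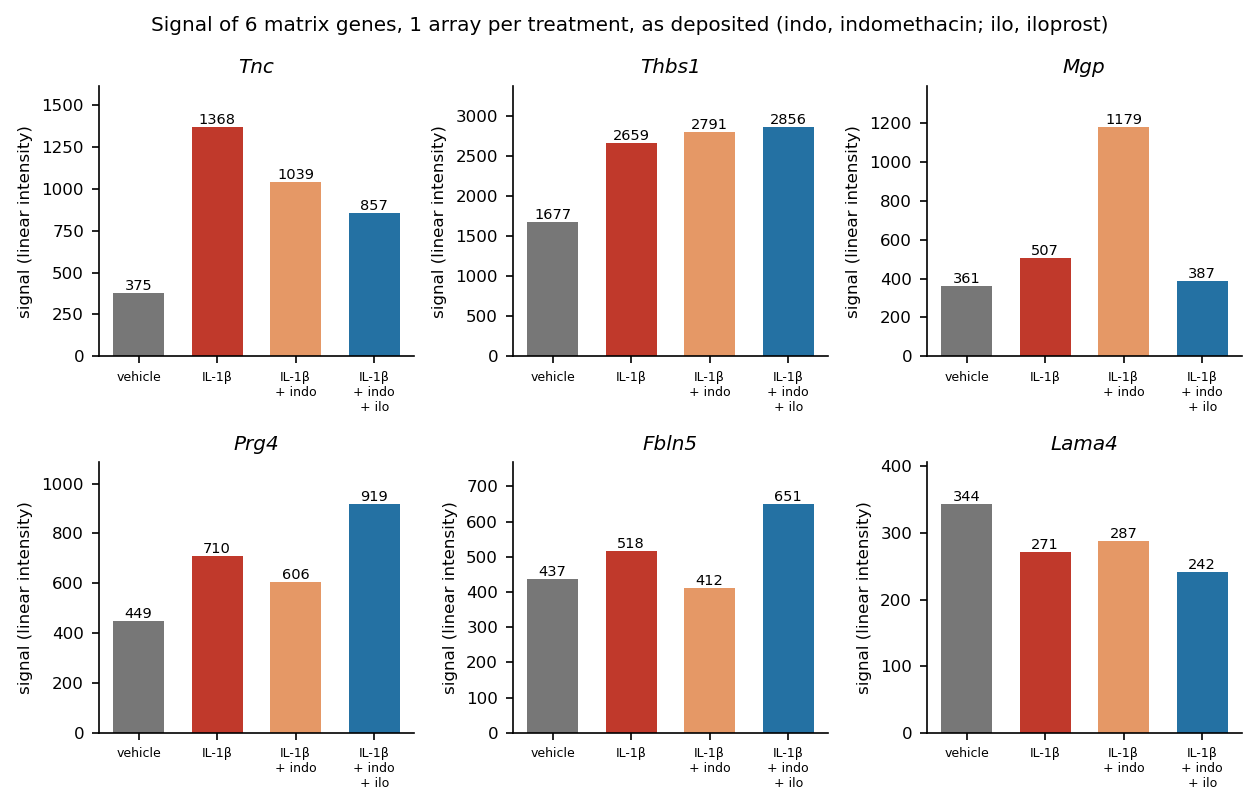
Deposited linear signal (vertical axis) of the 6 matrix genes past 1.5-fold in any comparison, on the array of each treatment (horizontal axis), with 1 array per bar and no error bars. Tnc and Thbs1 are lowest with vehicle, Mgp is highest with indomethacin at 1179, Prg4 and Fbln5 are highest with iloprost, and Lama4 is highest with vehicle at 344.

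Thbs1 was at least 1.5-fold higher than with vehicle in the indomethacin and iloprost dishes, and 1.36-fold above vehicle, short of that threshold, with IL-1β alone. It encodes thrombospondin-1, a matricellular protein that binds CD47 and activates latent TGF-β. Thbs1 (1460302_at) had a signal of 1677 in the vehicle dish, 2659 in the IL-1β dish, 2791 in the indomethacin dish and 2856 in the iloprost dish. The vehicle dish was lowest, and the other 3 differed by log2 ratios of at most 0.24. The log2 ratio against vehicle was 0.44 for IL-1β, 0.66 with indomethacin and 0.68 with iloprost. The other Thbs1 probe set gave 0.51, 0.90 and 0.90. On the scale as deposited the IL-1β ratio also passed 1.5-fold, at 0.67.

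Of the other adhesive and matricellular genes, none passed 1.5-fold in any of the 6 comparisons by the probe set used. Fn1, which encodes fibronectin, had signals of 4728, 4903, 4489 and 4603 in the order of treatments above, with a range of 0.17 on the log2 scale. Its dimmer probe set was at 210, 149, 160 and 154, with a log2 ratio of -0.72 for IL-1β against vehicle, where the brighter one was at -0.17. Sparc, which encodes the collagen-binding protein osteonectin, had a range of 0.10 on the log2 scale. Postn, which encodes periostin, was at 3039, 3673, 2963 and 2770, with a log2 ratio of -0.27 for iloprost against IL-1β. Thbs2, which encodes thrombospondin-2, was at 802, 882, 774 and 971. Its log2 ratio for iloprost against indomethacin was 0.32, while its dimmer probe set, at 160, 167, 134 and 279, gave 1.05. The 2 Thbs2 probe sets thus agreed that the iloprost dish was highest and disagreed on the size. Spon1 was below the floor, with a highest signal of 19.3.

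Mgp was the member that stood out in both comparisons with a drug. It encodes matrix Gla protein, a vitamin K-dependent inhibitor of calcification in cartilage and vessel walls. Mgp (1448416_at) had a signal of 361 in the vehicle dish, 507 in the IL-1β dish, 1179 in the indomethacin dish and 387 in the iloprost dish. The indomethacin dish was high, and the other 3 lay between 361 and 507. The log2 ratio was 1.36 for indomethacin against IL-1β, or 2.57-fold, the 2nd highest of 6932 genes. It was -1.62 for iloprost against indomethacin, the 90th lowest of 6986 genes. Against vehicle it was 1.63 with indomethacin, 0.26 with IL-1β alone and 0.01 with iloprost, and for iloprost against IL-1β it was -0.25. The ratios past 1.5-fold all rest on the indomethacin array and on 1 probe set. Beside them, the summed signal of the 24 macrophage markers was 48251, 55150, 47146 and 43691 in the order of treatments, and their median log2 ratio was -0.06 for indomethacin against IL-1β and -0.23 for iloprost against indomethacin. Of 8 adipocyte markers on the array, Adipoq, Lep, Pparg, Cidec and Retn were below the floor on all 4 arrays. The summed signal of the list was 4149, 3399, 4420 and 1632, most of it from the lipase gene Lpl, whose log2 ratio for iloprost against indomethacin was -1.63. Cebpa, of the same list, was at 121, 128, 106 and 83.3, with a log2 ratio of -0.35 there. Fabp4, a fatty acid carrier gene of the same list, went the other way, at 101, 148, 120 and 164, with a log2 ratio of 0.44. The part of these lists in the Mgp ratios was not tested. Of 12 chondrocyte markers 10 were below the floor on all 4 arrays, Col2a1, Acan and Sox9 among them. Comp and Col11a1 of the same list were above it on all 4. Comp was at 372, 381, 386 and 387, and Col11a1 at 69, 113, 86 and 108.

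Prg4 was highest in the iloprost dish. Prg4 (1449824_at) had a signal of 449 in the vehicle dish, 710 in the IL-1β dish, 606 in the indomethacin dish and 919 in the iloprost dish. The vehicle dish was lowest, and IL-1β alone and with indomethacin stood between it and the iloprost dish. The log2 ratio was 0.95 for iloprost against vehicle, or 1.93-fold, the 208th highest of 6983 genes. It was 0.43 against vehicle for IL-1β alone, -0.08 for indomethacin against IL-1β, 0.51 for iloprost against IL-1β and 0.59 for iloprost against indomethacin. The last lies just past 1.5-fold, which is 0.58 on the log2 scale, and was just short of it with the floor at the 30th percentile. As deposited, the log2 ratio for iloprost against vehicle was 1.03, past 2-fold. Prg4 has 1 probe set.

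**Figure D3:**
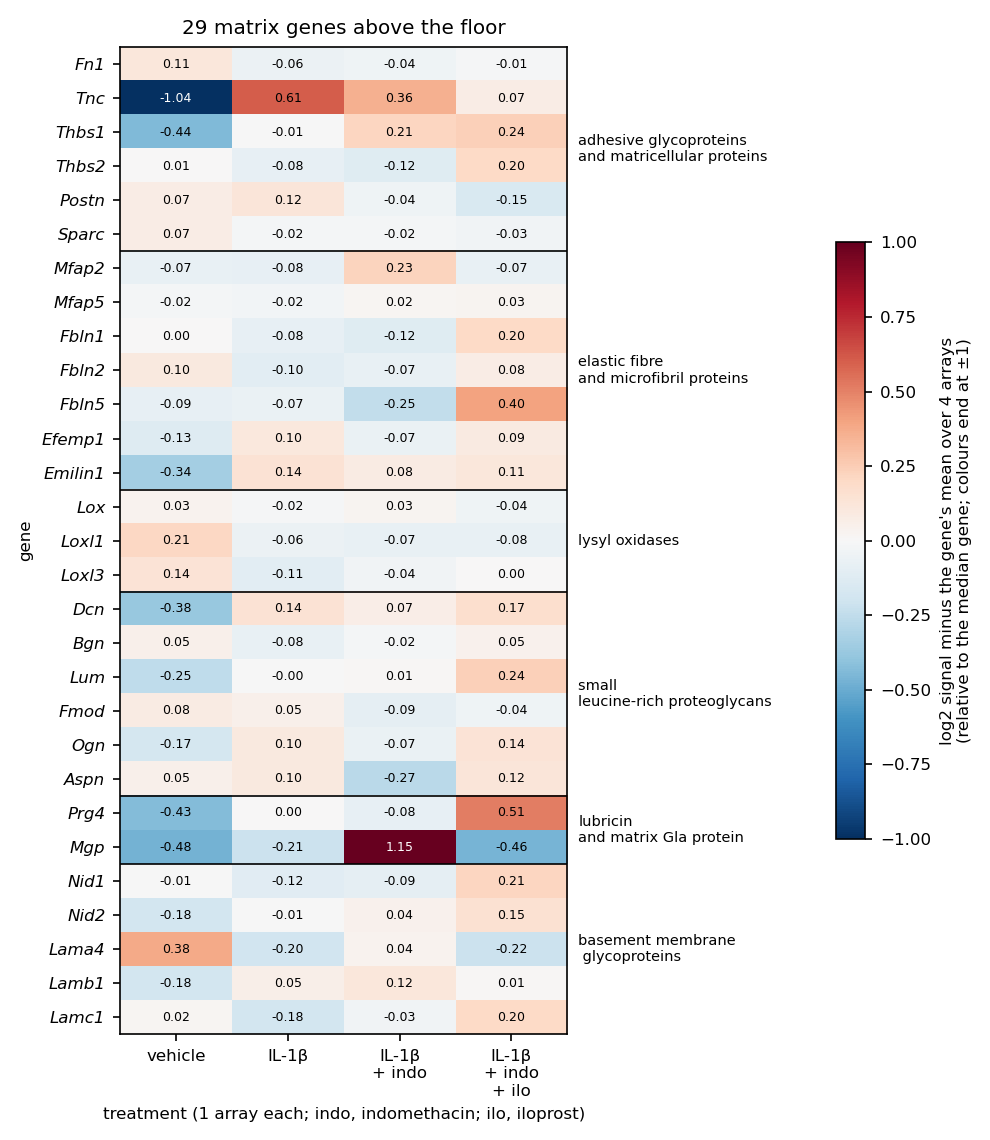
Log2 signal of 29 matrix genes (rows, grouped by role) on the 4 arrays (columns), relative to the median gene and to the gene's own mean over the arrays; red is above and blue below that mean, and colours end at 1 on either side. Outside Tnc, Thbs1, Mgp, Prg4, Fbln5, Dcn and Lama4 most cells are pale, and Mfap5, Lox, Sparc and Bgn, with ranges of 0.05 to 0.12, are the palest rows.

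Of the elastic-fibre and microfibril genes, 7 of 11 were above the floor and 1 passed 1.5-fold in any comparison. This was Fbln5, which encodes fibulin-5, a protein that binds tropoelastin and lysyl oxidase-like enzymes and is needed for elastic fibres. Fbln5 (1416164_at) had a signal of 437 in the vehicle dish, 518 in the IL-1β dish, 412 in the indomethacin dish and 651 in the iloprost dish. The iloprost dish was high, and the other 3 lay from 412 to 518. The log2 ratio of the iloprost dish was 0.65 against indomethacin, 0.47 against IL-1β and 0.49 against vehicle. The 3 ratios share the iloprost array and rest on 1 probe set, and 0.02 was found for IL-1β against vehicle. The median log2 ratio of the 7 genes for iloprost against indomethacin was 0.15, with 6 above the median gene and Mfap2 below it, at -0.30.

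Fbln1, which encodes fibulin-1, was also highest with iloprost, at 355 against 292, 322 and 282, with a log2 ratio of 0.32 against indomethacin and 0.50 by its other probe set. Emilin1, whose product lies between elastin and microfibrils and restrains TGF-β, was at 137, 223, 193 and 198. Its log2 ratio for IL-1β against vehicle was 0.48, but its other probe set gave -0.28, so the direction is not settled. Mfap5, a microfibril-associated glycoprotein gene, had a range of 0.05 on the log2 scale, the narrowest of the 29 members. Fbln2 and Efemp1 had ranges of 0.20 and 0.23. Mfap2, another microfibril gene, was at 90.2, 105, 117 and 95.8, and was highest with indomethacin. Eln, the elastin gene itself, was below the floor, with a highest signal of 21.7, and Mfap4 with one of 0.90.

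The lysyl oxidases oxidise lysines of collagen and elastin so that the chains cross-link. Lox was at 5272, 5961, 5546 and 5306 in the order of treatments, with a range of 0.08 on the log2 scale, and its second bright probe set at 4914, 5212, 5070 and 4988. Loxl1, the member of this group with the widest range, was at 876, 851, 762 and 765. Relative to the median gene, its log2 ratio was -0.27 for IL-1β against vehicle, and against vehicle -0.28 with indomethacin and -0.28 with iloprost, so the vehicle dish was highest by a small margin. Loxl3 had a log2 ratio of -0.24 for IL-1β against vehicle. As deposited, the IL-1β ratios of Loxl1 and Loxl3 were -0.04 and -0.02, and that of Lox turned from -0.05 to 0.18. None of the 3 genes passed 1.5-fold in any comparison.

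The small leucine-rich proteoglycans showed no member past 1.5-fold relative to the median gene. Dcn, which encodes decorin, a binder of collagen fibrils and TGF-β, came closest. Dcn (1449368_at) had a signal of 1222 in the vehicle dish, 2051 in the IL-1β dish, 1759 in the indomethacin dish and 1902 in the iloprost dish. The vehicle dish was lowest, and its distance to the 3 dishes with IL-1β was a log2 ratio of 0.52, 0.45 and 0.55. Between the dishes with IL-1β the log2 ratios of Dcn were within 0.10. As deposited, 0.75 and 0.64 were found for IL-1β and iloprost against vehicle, both past 1.5-fold, and the iloprost ratio also passed it under quantile normalization.

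Lum, which encodes lumican, was at 314, 436, 398 and 468, with a log2 ratio of 0.49 for iloprost against vehicle. Ogn, which encodes osteoglycin, was at 279, 395, 317 and 368, with a log2 ratio of 0.28 for IL-1β against vehicle and 0.14 by its other probe set. Both were lowest with vehicle. Aspn, which encodes asporin, was lowest with indomethacin, at 101 against 119, 144 and 132. Its log2 ratio was -0.36 for indomethacin against IL-1β and 0.39 for iloprost against indomethacin, and its other probe set gave -0.48 and 0.32. For iloprost against indomethacin all 6 genes of the group were above the median gene by the probe sets used (54.8% of all genes were), by 0.04 to 0.39, with a median of 0.16 where all genes had 0.039. Another bright Bgn probe set and 1 of Fmod were below it there, at -0.04 and -0.11. Bgn, which encodes biglycan, had a range of 0.12 over the 4 arrays.

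Fmod, which encodes fibromodulin, has 6 probe sets. The brightest was at 1558, 1778, 1462 and 1515, with a log2 ratio of -0.03 for IL-1β against vehicle. Of the other 5, 4 gave log2 ratios of -0.07 to 0.01. The last, 1438966_x_at, was at 186, 522, 275 and 256, with 1.26 for IL-1β against vehicle and -0.78 for indomethacin against IL-1β, and so went its own way. Across 15 members with further probe sets above the floor, 19 of 21 further probe sets were within 1.5-fold of the one used for IL-1β against vehicle. For indomethacin against IL-1β and for iloprost against indomethacin 20 of 21 were. The exceptions were Emilin1 and Fmod in the first comparison, Fmod in the second and Thbs2 in the third.

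**Figure D4:**
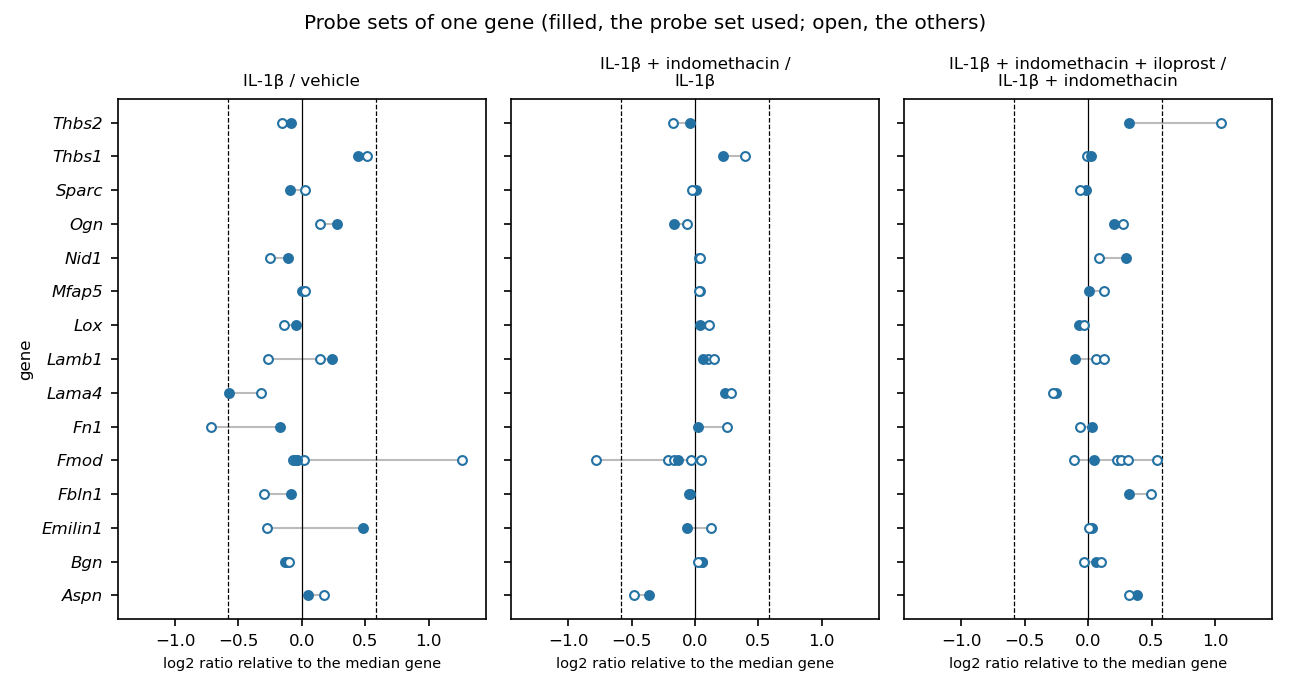
Log2 ratio relative to the median gene (horizontal axis) of each probe set above the floor, for the 15 matrix genes with more than 1 (vertical axis), in 3 comparisons of 1 array against 1. Filled points are the probe sets used and open points the others; dashed lines mark 1.5-fold. Most pairs lie close together. Open points more than 1.5-fold from the probe set used are those of Emilin1 and 1 of Fmod with IL-1β, 1 of Fmod with indomethacin and that of Thbs2 with iloprost.

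All 5 basement membrane genes were above the floor, and 1 passed 1.5-fold in a comparison. This was Lama4, which encodes the α4 chain of laminins made by mesenchymal and endothelial cells. Lama4 (1424807_at) had a signal of 344 in the vehicle dish, 271 in the IL-1β dish, 287 in the indomethacin dish and 242 in the iloprost dish. The vehicle dish was highest. The log2 ratio against vehicle was -0.57 for IL-1β alone, -0.34 for the indomethacin dish and -0.59 for the iloprost dish. The other probe set gave -0.32, -0.04 and -0.32. The iloprost ratio lies just past 1.5-fold and the IL-1β ratio just short of it. As deposited, the same ratios were -0.35, -0.26 and -0.51, so none passed 1.5-fold. Of 13 endothelial markers, 12 were below the floor on all 4 arrays, Pecam1, Cdh5 and Vwf among them.

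The other laminin chains went their own ways. Lamb1, the β1 chain gene, was at 441, 609, 574 and 538, with a log2 ratio of 0.24 for IL-1β against vehicle. Its other probe sets gave 0.14 and -0.27. Lamc1, the γ1 chain gene that most laminins share, was at 164, 167, 168 and 198, with a log2 ratio of 0.38 for iloprost against IL-1β. Its dimmer probe set was at 49.8, 30.2, 62.1 and 64.1, below the floor with IL-1β alone. The nidogens link laminin to type IV collagen. Nid1 was at 489, 530, 488 and 604, highest with iloprost, with log2 ratios of 0.33 against IL-1β and 0.22 against vehicle. Its other probe set was at 136, 133, 124 and 132, highest with vehicle, and gave 0.12 and -0.13, so the direction against vehicle is not settled. Nid2 was at 135, 179, 167 and 181, lowest with vehicle.

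Counted over the 4 arrays, 13 of 29 members (44.8%) had their highest signal relative to the median gene with iloprost, and 34.6% of all 6222 genes did. With vehicle 11 members (37.9%) had their lowest signal, where 26.6% of all genes did. But vehicle was also the highest array for 9 members (31%, against 27.5% of all genes). IL-1β alone was the lowest for 8 (27.6%, against 21.7%). For iloprost against vehicle, 3 of 29 members were at least 1.5-fold higher (10.3%, against 7.68% of 6983 genes) and 1 lower (3.45%, against 7.59%), with the median of 0.18 given above. With the floor at the 30th percentile, which brings in 2 more members, that median was 0.033 where all genes had -0.0066, so the distance between them fell from 0.16 to 0.039. For indomethacin against vehicle, 3 of 29 were higher (10.3%, against 3.47% of 6804 genes) and 0 lower (against 2.85%), with a median of -0.05 where all genes had -0.019. For iloprost against IL-1β alone, 0 of 29 were higher (against 5.11% of 7050 genes) and 0 lower (against 5.91%), with a median of 0.038 where all genes had 0.033. The 3 higher members against vehicle were Tnc, Thbs1 and Mgp with indomethacin, and Tnc, Thbs1 and Prg4 with iloprost. At 2-fold relative to the median gene, only Tnc and Mgp among the 29 were called in any of the 6 comparisons. For IL-1β against vehicle Tnc was higher (1.72% of all genes were) and 0 members were lower (against 0.56%). Against vehicle with indomethacin, Tnc and Mgp were higher (1.32% of all genes) and 0 lower (0.323%), and with iloprost Tnc was higher (2.72%) and 0 lower (3.34%). Mgp was also higher for indomethacin against IL-1β (0.245%), with 0 members lower (0.664%). It was lower for iloprost against indomethacin (3.19%), with 0 members higher (1.98%). For iloprost against IL-1β, 0 were higher (0.95%) and 0 lower (2.37%).

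Beside these iloprost ratios, the fibroblast markers had a median log2 ratio of 0.07 against indomethacin and -0.0045 against vehicle. The macrophage markers had -0.23 and -0.38. The part of these shifts in the members' ratios was not tested.

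Other matrix genes were looked up from lists of glycoproteins, basement membrane genes, proteoglycans and matrix-processing enzymes, of which 100 genes had a probe set. These lists were chosen with earlier results of these data known, and the part of that choice in the shares below was not tested. In the 4 comparisons below, in the order given, 2, 2, 3 and 3 of the ratios had a floored array. For IL-1β against vehicle, 7 of 59 with a ratio were at least 1.5-fold higher (11.9%, against 4.65% of all genes) and 1 was lower (1.69%, against 3.86%). For indomethacin against IL-1β 2 were higher (3.39%, against 1.64%) and 2 lower (3.39%, against 2.35%). For iloprost against indomethacin 8 were higher (13.6%, against 7.83%) and 3 lower (5.08%, against 7.19%). Their median log2 ratios were 0.03, -0.01 and 0.16, where all genes had -0.017, 0.0016 and 0.039. For iloprost against vehicle 10 were higher (16.9%, against 7.68%) and 2 lower (3.39%, against 7.59%), with a median of 0.15 against 0.024. Of 59, 40 were above the median gene for iloprost against indomethacin (67.8%, against 54.8% of all genes) and 45 for iloprost against vehicle (76.3%, against 53.6%).

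Among other matrix glycoproteins, Tgfbi, a TGF-β-induced adhesion protein, was at 1070, 2001, 1417 and 2947, with a log2 ratio of 1.05 for iloprost against indomethacin. Edil3, an integrin-binding protein, was at 96.4, 116, 104 and 197, and was highest with iloprost. The CCN family holds small matricellular proteins. Ccn1 was at 368, 525, 786 and 409, highest with indomethacin as Mgp was, with log2 ratios of 0.73 for indomethacin against IL-1β and -0.95 for iloprost against indomethacin. Ccn2, also called connective tissue growth factor, was at 2171, 2682, 3192 and 2253, with log2 ratios of 0.40 and -0.51. Ccn5 was at 785, 449, 404 and 715, and Ccn4 at 240, 464, 518 and 462. Thus Ccn5 was low with IL-1β and with indomethacin, while Ccn4 was lowest with vehicle.

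Among other proteoglycans, Vcan, the hyaluronan-binding versican gene, was at 301, 561, 296 and 755. Sdc1, the membrane proteoglycan syndecan-1 gene, was at 656, 1319, 783 and 1761. Both were low with vehicle and with indomethacin, with log2 ratios for indomethacin against IL-1β of -0.78 and -0.60 and for iloprost against indomethacin of 1.34 and 1.16. Cspg4, of the same list, went the other way, at 43.8, 56.2, 80.6 and 33.8. Its log2 ratio for indomethacin against IL-1β was 0.67, and its signal with iloprost was below the floor. Agrn, the agrin gene of basement membranes, was at 176, 208, 224 and 107, lowest with iloprost. Among matrix-processing enzymes, Plod2, a lysyl hydroxylase of collagen, was at 215, 322, 205 and 316. Tgm2, a transglutaminase that cross-links fibronectin, was at 1120, 1793, 1728 and 2447, with a log2 ratio of 1.04 for iloprost against vehicle.

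Of the integrins and other receptors for these proteins, 0 of 12 with a ratio passed 1.5-fold for IL-1β against vehicle (against 4.65% of all genes higher and 3.86% lower) and 0 of 12 for indomethacin against IL-1β (1.64% and 2.35%). For iloprost against indomethacin, 1 of 13 was higher (7.69%, against 7.83%) and 1 lower (7.69%, against 7.19%), so both shares were near those of all genes. Itga5, the α chain of the fibronectin receptor, was at 336, 354, 375 and 222, with a log2 ratio of -0.77. Cd36, a receptor for thrombospondin-1 that macrophages also carry, was at 899, 1274, 1069 and 1709, with a log2 ratio of 0.67.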

How the data were processed

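RNA of 4 dishes was measured on 4 1-colour Affymetrix GeneChips, 1 per treatment, labelled by the standard protocol per the labels. The deposited table holds, for each array and probe set, 1 intensity on a linear scale. How the authors summarised the probes, corrected background and scaled is not given in the sources used here. Their arrays had 2% trimmed means from 129.3 to 156.8, so they were not scaled to one mean. The number of arrays limits the precision.

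Of 22690 probe sets, 64 controls, 1555 without a gene name here and 691 naming several genes were left out, which left 20380 for 12393 genes. Names come from the platform's annotation; by gene number, the RefSeq table changed 0 of 32 member symbols. Signals under the floor were set to it, log2 was taken, and ratios were centred on the median gene (Python 3.11.15, pandas 2.3.3). The calculation was tested on simulated arrays. The text names members past 1.5-fold, the widest-ranging member of each other role group, other members by values or ranges, and of the other lists some of the members with the largest ratios. Members and lists were chosen with earlier results of these data known. Alternatives were 3 other scalings, floors at the 30th and 65th percentile, the mean of all probe sets and a 2-fold threshold.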

Additional observations from a re-analysis of the deposited data

How the results depend on the processing

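With 1 array per treatment nothing could be left out, and no paired analysis was possible because no treatment has a second array. Of 120 counts and medians recomputed, 103 stayed close, meaning counts within 1.5 times and medians within the SD between probe sets, and 17 moved. The members' medians were all smaller in size than that SD, so a median that changed sign could still count as close. As deposited, IL-1β against vehicle had 5 members higher (Tnc, Thbs1, Emilin1, Dcn and Prg4) and a median log2 ratio of 0.22, iloprost against IL-1β had 1 lower (Tnc), and iloprost against vehicle had 0 lower. The medians against IL-1β (indomethacin, iloprost) and against vehicle (indomethacin) also changed sign as deposited, to -0.13, -0.10 and 0.03. Lama4 was the 1 member lower with IL-1β under quantile normalization, under 2% trimmed mean scaling and with a floor at percentile 65. For iloprost against vehicle, 0 were lower under trimmed mean scaling, with the mean of all probe sets and at 2-fold. With the floor at the 30th percentile 2 were lower there (Eln and Lama4), and for iloprost against indomethacin 2 were lower (Eln and Mgp) and 1 higher (Fbln5). With that floor the members' median fell to 0.033 for iloprost against vehicle, and turned to -0.00054 against indomethacin and -0.016 against IL-1β. For iloprost against IL-1β, 1 was higher under quantile normalization (Prg4) and 1 with the mean of all probe sets (Lamc1). Dcn was a further higher member for iloprost against vehicle as deposited and under quantile normalization. At 2-fold, iloprost against vehicle had 1 higher member and iloprost against indomethacin 0. The Tnc ratio for IL-1β and the Mgp ratios for indomethacin and iloprost stayed past 2-fold under every setting run. Of 216 recomputed ratios of the 6 members, 6 moved, all for IL-1β against vehicle as deposited. That setting shifts every gene above the floor by the same 0.23, just over the SD of 0.22 between probe sets, so all 6 had to move. In the other comparisons the shift is smaller than the SD, so as deposited no ratio could move. The tally thus says little about single genes. Causes beyond the shift in brightness, the genes above each floor and the threshold itself were not tested.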
